A study of Mus musculus with 12 samples.

Results

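The genes described here are 31 genes of astrocytes, the glial cells that clear transmitter, buffer potassium and water, and supply metabolites to neurons. They comprise 27 steady-state genes, which astrocytes transcribe in the undisturbed brain, and 4 reactive genes (Gfap, Serpina3n, Lcn2 and Cd44), which are known to rise when astrocytes respond to injury or inflammation. They were chosen by name, and all 31 were found among the 32494 genes listed in the deposited expression table. The libraries came from the hypothalamus of 12 male mice, 1 library per mouse. All 12 mice carried floxed Smc3 and received tamoxifen, and tissue was taken 5 weeks after it, with 8 weeks of age given in the growth protocol without the step it refers to. The 7 mice without the Camk2a-cre/ERT2 transgene were labelled WT, and the 5 mice with it were labelled cKO. Every sample title in both groups also holds the word control, which was not used. In such mice a Camk2a promoter drives a tamoxifen-activated Cre recombinase in excitatory forebrain neurons, so that astrocytes are not the cells in which Smc3 is meant to be deleted. The comparison of the groups therefore asks how astrocyte RNA in whole hypothalamus differed between mice with and without the neuronal recombinase.

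Astrocytes take up glutamate and convert it to glutamine, are coupled to each other through connexin channels, and wrap blood vessels with endfeet rich in the water channel aquaporin 4. Hypothalamic astrocytes lie next to the neurons that control feeding and body fluid, and to tanycytes, the radial glia of the third ventricle that share some of their genes. In bulk tissue, fewer cells of a type and less RNA per cell cannot be told apart, and several of the 31 genes are also transcribed elsewhere in the brain, such as Cst3 in microglia.

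The floxed gene went against its labels. Smc3, which encodes a core subunit of the cohesin ring, averaged 81.6 ± 3.14 normalized CPM (counts per 1 M reads) over the libraries labelled WT (SD, n = 7). Over the libraries labelled cKO its mean was 131 ± 10.3 CPM (SD, n = 5). The groups did not overlap, and the log2 fold change was 0.67 (SE 0.05, adjusted p by limma 3.06e-05). Which exons the reads came from was not analysed here, and every direction below is that of the libraries labelled cKO. WT 1 held 68.7 M reads and the other 11 libraries between 17.1 and 24.0 M each, so that 3 reads, taken as the smallest readable level, corresponded to between 0.0436 and 0.178 CPM. This floor covers counting error only. The adjusted p-values measure the spread between these mice.

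In the data, 4 libraries stood apart whatever their label. WT 4, WT 5, cKO 12 and cKO 13 lay apart from the other 8 libraries on the first principal component of the 15329 tested genes outside the list, at 17.7 to 21.1 against -23.0 to -0.51. The summed level of 12 markers of hypothalamic neurons was 135 to 283 CPM in those 4 libraries and 462 to 772 CPM in the other 8. The summed level of 8 oligodendrocyte markers was 8893 to 10188 CPM in the 4 and 4211 to 7108 CPM in the 8. The 4 libraries fall in both groups, 2 of 7 labelled WT and 2 of 5 labelled cKO. Single markers of other cell types differed between the labels, where 14.1% of all tested genes were called. Of 8 pan-neuronal markers 3 were called higher in the libraries labelled cKO (Elavl4, Stmn2 and Map2), where called means an adjusted p under 0.05 in limma over all tested genes. Of the 8, 6 had a log2 fold change above 0 and 2 below. Their summed level was 4884 to 5555 CPM in WT and 5607 to 6101 CPM in cKO. All 9 markers of thalamic neurons had a log2 fold change below 0, 3 of them past the threshold (Prkcd, Rgs16 and Plekhg1), with a summed level of 479 to 1051 CPM in WT and 276 to 582 CPM in cKO. Of 5 markers of oligodendrocyte precursors 3 were called higher (Pdgfra, Gpr17 and Olig2), with summed levels of 202 to 279 CPM in WT and 239 to 295 CPM in cKO. Of the 5, 4 had a log2 fold change above 0 and 1 was below, at -0.15. Of 4 tested tanycyte markers, 2 with a log2 fold change above 0 and 2 below, Col25a1 was called lower, at a mean of 129 CPM in WT and 83.1 CPM in cKO. It made up most of the summed level of that list, which was 120 to 225 CPM in WT and 102 to 115 CPM in cKO. Of 12 markers of hypothalamic neurons Sim1 was called higher. Of the 12, 8 had a log2 fold change above 0 and 4 below, between -0.60 and 1.27. None of the markers of oligodendrocytes, microglia, endothelial cells, mural cells and fibroblasts, ependymal cells, choroid plexus or cortical and striatal neurons passed in limma or in edgeR. At an unadjusted p under 0.05 there was 1 microglial and 1 choroid plexus marker, and DESeq2 called 1 choroid plexus marker. Without the 4 libraries the calls for Col25a1, Rgs16, Plekhg1, Olig2 and Pdgfra were lost, and those for Elavl4, Stmn2, Map2, Gpr17, Prkcd and Sim1 were kept. Over 25 alternative fits the log2 fold change was -0.72 to -0.37 for Col25a1, -1.20 to -0.35 for Rgs16 and -1.06 to -0.081 for Plekhg1. It was 0.13 to 0.31 for Olig2 and 0.12 to 0.18 for Pdgfra. These ranges cover all 25 fits together, and why single calls were lost was not tested. The part of these cell types in the astrocyte results was not tested, beyond fits with a marker score as a covariate.

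**Figure D1:**
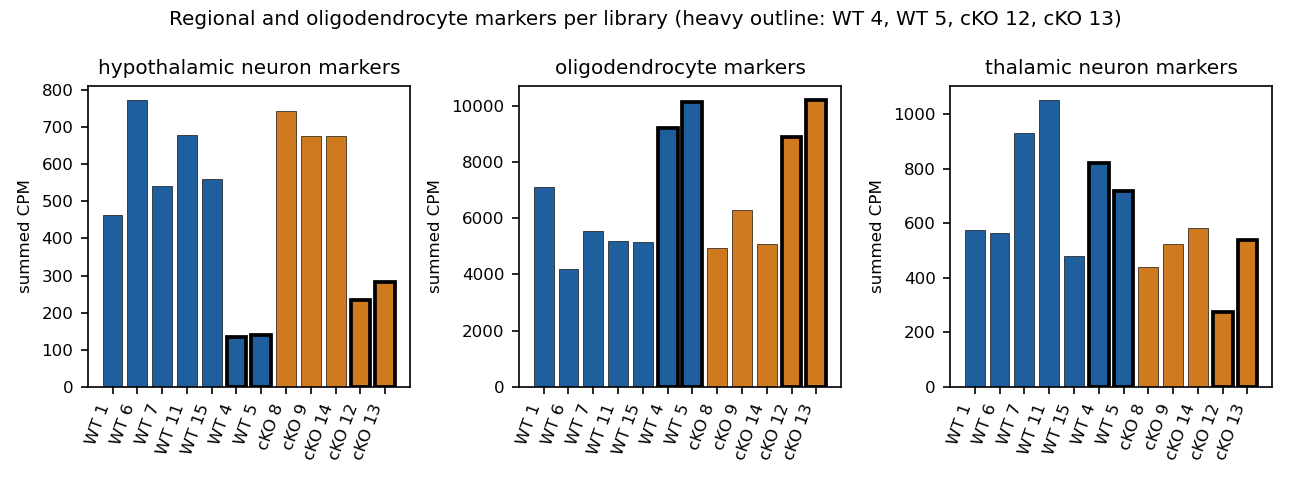
Summed CPM of the markers of hypothalamic neurons, oligodendrocytes and thalamic neurons (3 panels) in each of the 12 libraries, with bars in blue for the label WT and in orange for cKO. The 4 bars with a heavy outline are at 135 to 283 CPM in the first panel, where the other 8 are at 462 CPM or more, and above the other 8 in the oligodendrocyte panel.

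All 27 steady-state genes were measured well above the floor in every library, the lowest being Gli1 with 191 reads. Per kilobase of exon, averaged over the 12 libraries, Cst3 (cystatin C, a secreted protease inhibitor) was the most abundant of the 31 at 757 CPM per kb. Ndrg2 followed at 410, Glul at 380, Aldoc at 343 and Clu at 245 CPM per kb. Aqp4 was at 27.6 and Gfap at 24.1 CPM per kb, and the transcription factor Sox9 was at 10.4. The lowest on this scale were Gli1 at 2.99, Cd44 at 0.779 and Lcn2 at 0.0119 CPM per kb. Exon lengths were those of GENCODE M21, which may not be the annotation the reads were counted on.

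Lcn2 fell under the minimum of 1 CPM used for testing, which left 30 genes. Of these, 5 passed an adjusted p of 0.05, where 14.1% of all 15359 tested genes did. Cst3, Mfge8 and Serpina3n were higher in the libraries labelled cKO, and Gli1 and Itih3 were lower. The count was thus near the share of genes called across the whole transcriptome (6.54% higher and 7.6% lower). Under median centring the split over all genes was 1377 higher and 1054 lower, where it was 1004 higher and 1168 lower without it. Of the 27 steady-state genes 4 passed, 2 in each direction, and of the 3 tested reactive genes 1 did. The median log2 fold change of the steady-state genes was 0.10 and 19 of 27 were above 0, against a median of 0.0092 and 52.5% above 0 over all tested genes. By an unadjusted p under 0.05, 9 of 30 were past, against 31.1% of all tested genes. The groups did not overlap for 3 of 30 (Cst3, Mfge8 and Gli1), against 6.73% of all tested genes.

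The counts moved with the covariate in the fit. With the oligodendrocyte score as a covariate (an alternative chosen once the data had been seen), 13 of the 30 genes were called where 21.0% of all genes were, the added ones being Acsbg1, Aldoc, Aqp4, Glul, Mlc1, Ppp1r3c, S100b and Slc1a2, all with positive fold changes. With the neuron score, which did not overlap between the groups (8.86 to 9.03 in WT and 9.04 to 9.15 in cKO, mean log2(CPM + 1)), 2 were called, Gli1 and Acsl3, where 3.17% of all genes were, and the neuron score and the label cannot be told apart.

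**Figure D2:**
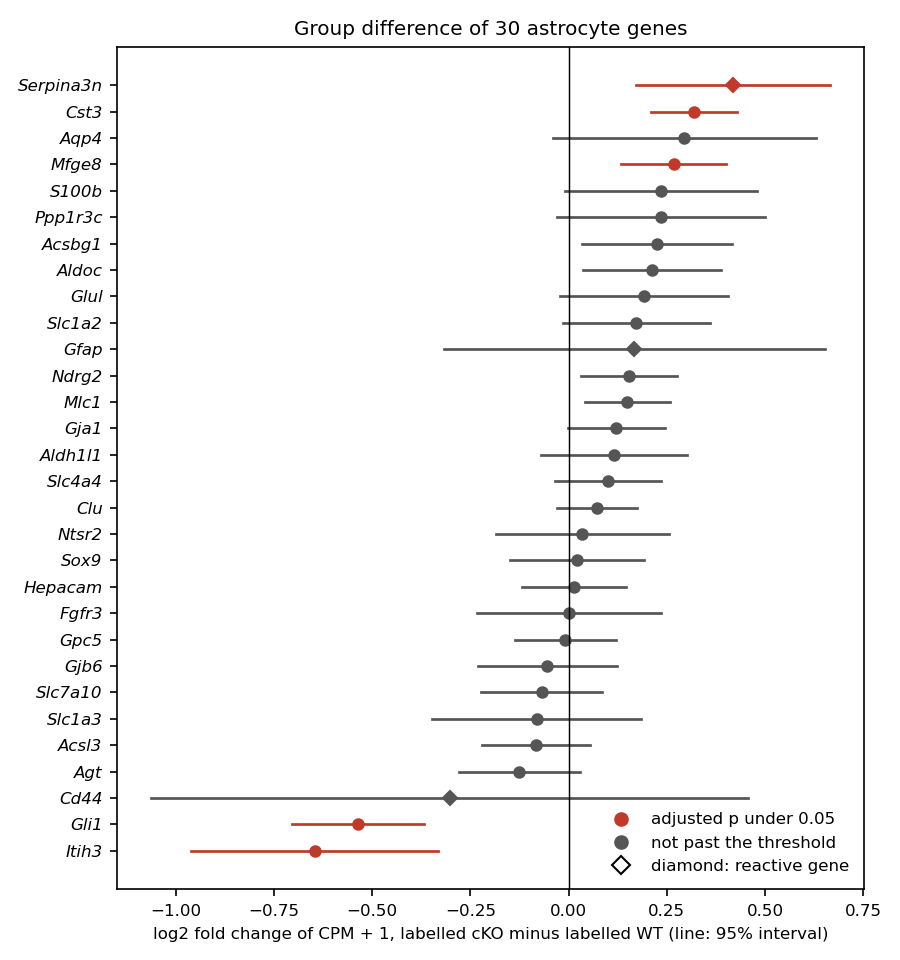
Log2 fold change of CPM + 1 (labelled cKO minus labelled WT, x axis) for the 30 tested astrocyte genes, with lines for the 95% interval, red for an adjusted p under 0.05 and diamonds for reactive genes. Gli1 and Itih3 lie below -0.5, Cst3, Mfge8 and Serpina3n lie above 0.25, and the interval of Cd44 spans -1.06 to 0.46.

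Gli1 encodes the transcription factor at the end of the sonic hedgehog pathway and is itself switched on by that pathway, which makes it a marker of astrocytes that receive the signal. It was lower in the libraries labelled cKO. The 7 libraries labelled WT had a lowest value of 14.5, a median of 17.3 and a highest of 20.6 CPM. Those labelled cKO had 10.2 (cKO 8), 12.1 (cKO 9), 11.9 (cKO 12), 12.4 (cKO 13) and 11.3 CPM (cKO 14). Every cKO value was below every WT value. The means were 17.3 ± 1.96 (SD, n = 7) and 11.6 ± 0.902 CPM (SD, n = 5), a ratio of 0.670. The log2 fold change was -0.54 (SE 0.08, limma adjusted p = 0.00294), and the exact two-sided permutation test over the 792 ways to divide the libraries gave p = 0.00126, the smallest it can give. The difference was -0.62 among the 8 libraries that did not stand apart and -0.37 among the 4 that did. The call was kept in each of the 13 alternative fits and in each of the 12 that left out a mouse. Of the exonic bases of Gli1, 327 are shared in GENCODE M21 with Arhgap9 and Gm47200 on the other strand, and the strand setting of the counting is not given in the sources used here, so reads of these genes cannot be told apart there.

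Other genes of the hedgehog pathway were read beside it from a list of 9 that left Gli1 out. All 9 had a log2 fold change below 0 (8 under median centring, where Hhip was at 0.0047, and 7 under quantile normalization, where Gli3 and Hhip were above 0), with a median of -0.13, and 2 passed the threshold, both lower. Over all tested genes 52.5% were above 0, 14.1% were called and 7.6% were called lower. Shh, the ligand, which neurons supply to astrocytes, was at 14.5 ± 0.892 CPM (SD, n = 7) in WT and 10.4 ± 1.87 CPM (SD, n = 5) in cKO, with groups that did not overlap and a log2 fold change of -0.46 (limma SE 0.09, adjusted p = 0.00836). The call for Shh was lost in 1 of 25 alternatives, with the neuron score (adjusted p = 0.0631). Its log2 fold change lay between -0.55 and -0.38 over all 25, about as large as in the main fit. Cdon, a co-receptor, was at 11.1 ± 1.04 and 9.14 ± 0.779 CPM (limma adjusted p = 0.0395), a call that 12 of 25 alternatives kept. The log2 fold change of Cdon was -0.25 in the main fit and -0.36 to -0.20 over the alternatives. Ptch1, a receptor and a target of the pathway, did not pass (-0.13, adjusted p = 0.370). The pathway's other transcription factors Gli2 and Gli3, the signal transducer Smo, the inhibitor Hhip and the co-receptor Boc had fold changes between -0.14 and -0.0092 and did not pass either. This list was read with the result for Gli1 known.

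Itih3, the heavy chain of an inter-alpha-trypsin inhibitor that binds hyaluronan in the extracellular matrix, had the largest fall of the 30 on the log2 scale. Labelled WT, it ranged from 203 (WT 5) through a median of 302 to 368 CPM (WT 15). Labelled cKO, it was at 144 (cKO 8), 164 (cKO 9), 206 (cKO 12), 206 (cKO 13) and 209 CPM (cKO 14). The groups overlapped, since WT 5 lay within the cKO range, and the remaining 6 WT libraries were above all 5 cKO libraries. The means were 294 ± 62.2 (SD, n = 7) and 186 ± 30.2 CPM (SD, n = 5), a ratio of 0.632. The log2 fold change was -0.65 (SE 0.15, limma adjusted p = 0.0141, exact permutation p = 0.00758). Among the 8 libraries that did not stand apart the difference was -0.91, and among the other 4 it was -0.10. With the neuron score as a covariate it was -0.39 (adjusted p = 0.303).

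Cst3 was higher in every library labelled cKO than in any labelled WT. In WT the lowest value was 780, the median 881 and the highest 928 CPM. In cKO it was at 1146 (cKO 8), 1056 (cKO 9), 999 (cKO 12), 1117 (cKO 13) and 1099 CPM (cKO 14). The means were 869 ± 50.9 (SD, n = 7) and 1083 ± 57.5 CPM (SD, n = 5), a ratio of 1.25. The log2 fold change was 0.32 (SE 0.05, limma adjusted p = 0.00383, exact permutation p = 0.00126). The difference was 0.35 among the 8 libraries and 0.27 among the 4. Microglia are also known for Cst3. All 6 of their markers had a log2 fold change above 0, 1 at an unadjusted p under 0.05 and none past the threshold in limma, edgeR or DESeq2, and their summed level was 176 to 202 CPM in WT and 188 to 209 CPM in cKO. Their part in the Cst3 result was not tested.

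Mfge8 encodes a secreted bridging protein that marks phosphatidylserine on dying cells for phagocytes. It had the narrowest spread of the 30 in WT, with a coefficient of variation (SD over mean) of 2.84%. In WT it ran from 80.8 through a median of 84.6 to 86.8 CPM. In cKO it was at 117 (cKO 8), 109 (cKO 9), 91.6 (cKO 12), 87.2 (cKO 13) and 105 CPM (cKO 14). The groups did not overlap, but cKO 13 lay only just above the highest WT library, and cKO 12 and cKO 13 were the lowest of their group. The means were 84.0 ± 2.38 (SD, n = 7) and 102 ± 12.3 CPM (SD, n = 5), a ratio of 1.21 and a log2 fold change of 0.27 (limma SE 0.06, adjusted p = 0.0159, exact permutation p = 0.00126). The difference was 0.38 among the 8 libraries and 0.11 among the 4. With the neuron score as a covariate, Cst3 (log2 fold change 0.29, adjusted p = 0.0577) and Mfge8 (0.33, adjusted p = 0.0737) missed the threshold, with differences about as large as without it.

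Serpina3n, a secreted serine protease inhibitor and one of the most used markers of reactive astrocytes, was the only reactive gene past the threshold. It ran from 18.9 (WT 11) through a median of 24.0 to 32.3 CPM (WT 15) in WT. In cKO it was at 27.1 (cKO 8), 32.5 (cKO 9), 39.0 (cKO 12), 35.5 (cKO 13) and 32.7 CPM (cKO 14). The groups overlapped, with WT 6 and WT 15 above the lowest cKO library. The means were 24.8 ± 4.39 (SD, n = 7) and 33.3 ± 4.36 CPM (SD, n = 5), a ratio of 1.34 and a log2 fold change of 0.42 (limma SE 0.12, adjusted p = 0.0296, exact permutation p = 0.0126). The difference was 0.28 among the 8 libraries that did not stand apart (adjusted p = 0.229) and 0.64 among the 4, and with the thalamic neuron score as a covariate it was 0.16 (adjusted p = 0.295). The call was also lost over all genes above 0 (adjusted p = 0.0578) and in 7 of the 12 fits that left out 1 mouse (WT 1, WT 4, WT 7, cKO 9, cKO 12, cKO 13 or cKO 14, adjusted p 0.0504 to 0.0654). In those 12 fits the log2 fold change was 0.36 to 0.49, about as large as over all mice. Serpina3n belongs to a cluster of near-identical Serpina3 genes, so the assignment of its reads is uncertain.

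Promoters of the called genes are shown so that the letters before the start of genes that were higher can be compared with those of a gene that was lower. RefSeq (GRCm38.p6) gave entries for 27 of the 31 genes, and for Cst3, Mfge8, Serpina3n and Itih3 among those called. The 250 bases before the start are given 5' to 3' on the gene's strand, with capitals for motif matches.
Cst3, chr2:148875513-148875762, minus strand: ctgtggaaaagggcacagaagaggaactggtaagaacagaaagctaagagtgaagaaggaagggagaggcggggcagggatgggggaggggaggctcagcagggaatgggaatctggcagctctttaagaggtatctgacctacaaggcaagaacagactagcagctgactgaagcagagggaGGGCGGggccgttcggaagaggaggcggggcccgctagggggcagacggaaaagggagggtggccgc
Mfge8, chr7:79149061-79149310, minus strand: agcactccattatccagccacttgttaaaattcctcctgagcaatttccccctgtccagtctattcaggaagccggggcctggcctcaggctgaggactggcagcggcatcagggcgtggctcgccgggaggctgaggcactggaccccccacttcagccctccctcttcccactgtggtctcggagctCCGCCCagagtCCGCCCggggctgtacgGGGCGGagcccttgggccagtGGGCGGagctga
Serpina3n, chr12:104406458-104406707, plus strand: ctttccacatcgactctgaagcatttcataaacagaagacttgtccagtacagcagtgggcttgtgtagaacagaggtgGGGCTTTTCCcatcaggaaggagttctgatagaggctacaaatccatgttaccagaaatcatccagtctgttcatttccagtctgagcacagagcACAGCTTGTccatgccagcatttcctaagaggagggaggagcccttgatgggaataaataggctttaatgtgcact
Itih3, chr14:30923588-30923837, minus strand: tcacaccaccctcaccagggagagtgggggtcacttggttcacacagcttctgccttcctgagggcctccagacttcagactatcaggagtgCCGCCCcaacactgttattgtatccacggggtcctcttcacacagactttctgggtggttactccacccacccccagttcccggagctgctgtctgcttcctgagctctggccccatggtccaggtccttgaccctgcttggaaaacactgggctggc
The motifs searched on both strands were the GLI site GACCACCCA (found in 0.225% of all 32851 promoters of this length), the STAT site TTCNNNGAA (7.02%), the NF-kB site (GGG, then 2 of any base, then TTTCC, 1.41%), the glucocorticoid receptor site ACANNNTGT (5.84%), the GC box GGGCGG (32.7%) and the AP-1 site TGANTCA (6.75%). In Serpina3n the capitals mark an NF-kB match 171 to 162 bases before the start and a glucocorticoid receptor match 76 to 68 bases before it. In Cst3 they mark a GC box 67 to 62 bases before the start, in Itih3 a GC box 158 to 153 bases before it, and in Mfge8 4 GC boxes within the last 61 bases. Cst3 and Mfge8, which were higher, and Itih3, which was lower, thus all held a GC box, as 32.7% of all promoters do. A match is a run of letters and not a binding site.

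**Figure D3:**
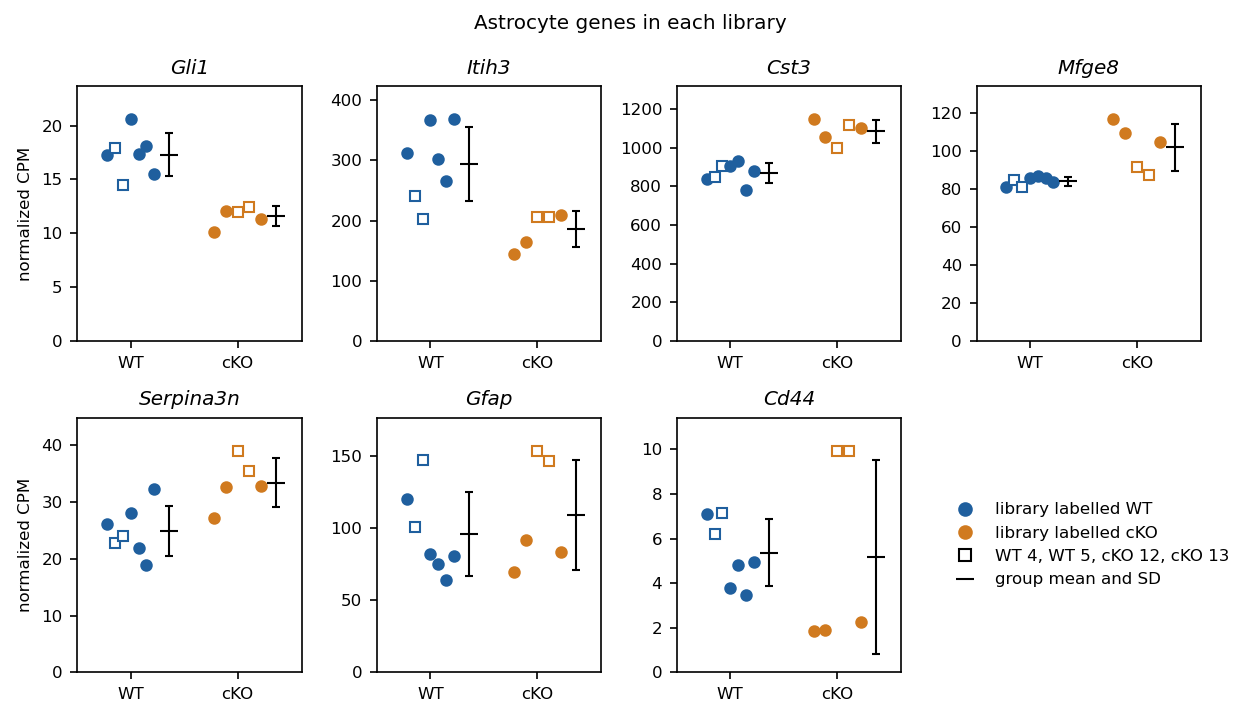
Normalized CPM (y axis, linear from 0) of 5 called astrocyte genes and of Gfap and Cd44 in each library labelled WT or cKO, with black bars for the group mean and SD and open squares for WT 4, WT 5, cKO 12 and cKO 13. Gli1, Cst3 and Mfge8 do not overlap between the groups, while the open squares labelled cKO lie above every WT library for Cd44.

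The other reactive genes did not pass. Gfap, the intermediate filament of astrocytes, was at 96.0 ± 29.2 CPM (SD, n = 7) in WT and 109 ± 38.4 CPM (SD, n = 5) in cKO. It ran from 64.4 (WT 11) through a median of 81.8 to 147 CPM (WT 5) in WT and stood at 69.9 (cKO 8), 92.0 (cKO 9), 154 (cKO 12), 147 (cKO 13) and 83.6 CPM (cKO 14). The highest libraries were thus WT 5, cKO 12 and cKO 13, all of them among the 4 that stood apart. WT 4, which also stood apart, was at 101 CPM, below WT 1 at 121 CPM, which did not. The log2 fold change was 0.17 with a 95% interval of -0.32 to 0.65 (limma adjusted p = 0.657, exact permutation p = 0.530). It was -0.03 among the 8 libraries and 0.30 among the 4, and leaving out 1 mouse moved it between 0.027 (without cKO 12) and 0.31 (without cKO 8).

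Cd44, the hyaluronan receptor, showed the widest spread of all 30 genes within the cKO group, with a coefficient of variation of 84.0%. In WT it ran from 3.47 (WT 11) through a median of 4.94 to 7.16 CPM (WT 5). In cKO it was at 1.85 (cKO 8), 1.91 (cKO 9), 9.94 (cKO 12), 9.92 (cKO 13) and 2.25 CPM (cKO 14). The 3 cKO libraries that did not stand apart were below every WT library, and the other 2 were above every WT library. The log2 fold change over all 12 was -0.30 with a 95% interval of -1.06 to 0.46 (limma adjusted p = 0.602, exact permutation p = 0.466). It was -0.93 among the 8 libraries (adjusted p = 0.0157) and 0.51 among the 4, opposite in direction, and leaving out 1 mouse moved it between -0.58 (without cKO 12 or cKO 13) and -0.10 (without cKO 8). No test of that difference was made.

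Lcn2, a secreted iron-siderophore binding protein that neutrophils and strongly reactive astrocytes make, had between 0 and 4 reads per library, at most 0.0980 CPM (cKO 9). Both groups were at or below 3 reads in all but 1 library, and no fold change was computed. The summed level of 5 neutrophil markers was at most 0.336 CPM in any library.

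Among the 23 steady-state genes that did not pass, 17 had a log2 fold change above 0 and 6 below, between -0.13 and 0.29. Fgfr3 and Gpc5 were so near 0 that quantile normalization turned the sign of the first and median centring that of the second. Slc1a2, the main glutamate transporter, was at 1333 ± 122 CPM (SD, n = 7) in WT and 1508 ± 201 CPM (SD, n = 5) in cKO, with a 95% interval of -0.01 to 0.36 for the log2 fold change (limma adjusted p = 0.193). Slc1a3, the other astrocyte glutamate transporter, was at 589 ± 86.2 and 558 ± 102 CPM, with an interval of -0.35 to 0.18 (adjusted p = 0.697). Glul, the glutamine synthetase, was at 1192 ± 135 and 1366 ± 209 CPM, with an interval of -0.02 to 0.40 (adjusted p = 0.210). Slc7a10, a transporter of small neutral amino acids such as D-serine, had a log2 fold change of -0.07 (adjusted p = 0.555).

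The genes of water, ion and junction handling were led by Aqp4. It was at 157 ± 34.4 CPM (SD, n = 7) in WT and 193 ± 43.4 CPM (SD, n = 5) in cKO, a log2 fold change of 0.29 with an interval of -0.04 to 0.63 (limma adjusted p = 0.215). WT libraries ran from 115 (WT 11) to 221 CPM (WT 5) and cKO libraries from 149 (cKO 8) to 250 CPM (cKO 13), so the ranges overlapped broadly. Mlc1, a membrane protein of endfeet, had the smallest p of the genes that missed the threshold, at 249 ± 17.9 and 276 ± 10.6 CPM with a log2 fold change of 0.15 (unadjusted p = 0.0103, adjusted p = 0.0622, limma). Its partner Hepacam had a fold change of 0.013 (adjusted p = 0.911). Of the 2 connexins, Gja1 was at 0.12 (adjusted p = 0.170) and Gjb6 at -0.05 (adjusted p = 0.698). The sodium-bicarbonate cotransporter Slc4a4 was at 0.10 (adjusted p = 0.298).

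In limma Aldoc, Acsbg1 and Ndrg2, like Mlc1, were past an unadjusted p of 0.05 and not past the adjusted one. DESeq2 called Mlc1 (adjusted p = 0.0471) and Ndrg2 (adjusted p = 0.0408), arrayWeights called all 4, and Mlc1 was also called under median centring (adjusted p = 0.0408) and without WT 6 or WT 15. Aldoc, an aldolase of glycolysis, was at 1050 ± 114 CPM (SD, n = 7) in WT and 1214 ± 107 CPM (SD, n = 5) in cKO (log2 fold change 0.21, limma adjusted p = 0.0985). Acsbg1, a long-chain acyl-CoA synthetase, was at 197 ± 22.9 and 230 ± 28.3 CPM (0.22, adjusted p = 0.105). Ndrg2, a cytoplasmic protein abundant in astrocytes, was at 1330 ± 83.7 and 1479 ± 91.2 CPM (0.15, adjusted p = 0.0835). All of these had overlapping ranges. Acsl3, a second acyl-CoA synthetase, was at -0.08 (adjusted p = 0.400), and Ppp1r3c, which targets phosphatase to glycogen, at 0.23 (adjusted p = 0.213). The value for Acsl3 was -0.28 to -0.04 over the 13 alternative fits and -0.12 to -0.026 when leaving out each mouse. Only the limma fit with the neuron score called Acsl3 (adjusted p = 0.0478). Aldh1l1, a folate enzyme widely used as an astrocyte marker, was at 0.12 (adjusted p = 0.386).

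Secreted proteins, receptors and regulators made up the rest. Clu (clusterin), an apolipoprotein, was at 824 ± 47.3 CPM (SD, n = 7) in WT and 865 ± 29.6 CPM (SD, n = 5) in cKO, with a log2 fold change of 0.07 (limma adjusted p = 0.321). Agt, the angiotensin precursor, which is known to be high in hypothalamic astrocytes, had the lowest fold change of the genes that did not pass among the steady-state genes, -0.13 with an interval of -0.28 to 0.03 (adjusted p = 0.251). The calcium-binding S100b was at 132 ± 21.5 and 155 ± 24.1 CPM (0.24, adjusted p = 0.176). The transcription factor Sox9 was at 42.7 ± 4.30 and 43.4 ± 4.73 CPM (0.022, adjusted p = 0.886). The growth factor receptor Fgfr3 was at 0.00069 with an interval of -0.23 to 0.23, the neurotensin receptor Ntsr2 at 0.035, and the glypican Gpc5 at -0.0087, with adjusted p of 0.998, 0.851 and 0.942. Misses of the threshold do not show that these genes were alike in both groups. The intervals are those of the main fit and do not cover every alternative. With the neuron score as a covariate, Aldh1l1 was at -0.11, outside its interval of -0.07 to 0.30.

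Of the reactive genes, Gfap was then set beside the steady-state genes over libraries, and Serpina3n and Cd44 were not. The mean log2(CPM + 1) over the 27 steady-state genes was between 7.58 (WT 11) and 7.81 (WT 5) in WT and between 7.65 (cKO 8) and 7.89 (cKO 13) in cKO. Gfap relative to this mean ran from -1.55 (WT 11) to -0.60 (WT 5) in WT and from -1.50 (cKO 8) to -0.59 (cKO 12) in cKO. The ranges of Gfap relative to the steady-state genes thus overlapped nearly throughout. Of the 30 genes, WT 11 had the lowest WT value for 20 and cKO 8 the lowest cKO value for 21. WT 5 had the highest WT value for 12, and cKO 13 the highest cKO value for 14.

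Part of this variation followed the 4 libraries that stood apart. For 8 genes (Aqp4, Aldh1l1, Slc1a2, S100b, Glul, Acsbg1, Hepacam and Ppp1r3c) both WT 4 and WT 5 were above all other WT libraries, and both cKO 12 and cKO 13 above all other cKO libraries, where 6.73% of all tested genes did so. Slc1a3 alone was below in both groups, where 5.31% of all tested genes were. Aqp4 averaged 219 CPM in the 4 libraries and 148 CPM in the other 8, Ppp1r3c 60.6 and 44.3 CPM, and Slc1a3 464 and 632 CPM. Oligodendrocyte markers were higher and hypothalamic neuron markers lower in the same 4 libraries, and their part in these values was not tested. Without the 4 libraries 5 of the 30 genes passed, where 10.3% of all tested genes did: Cst3, Mfge8, Gli1 and Itih3 again, and Cd44, with Serpina3n no longer past the threshold.

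**Figure D4:**
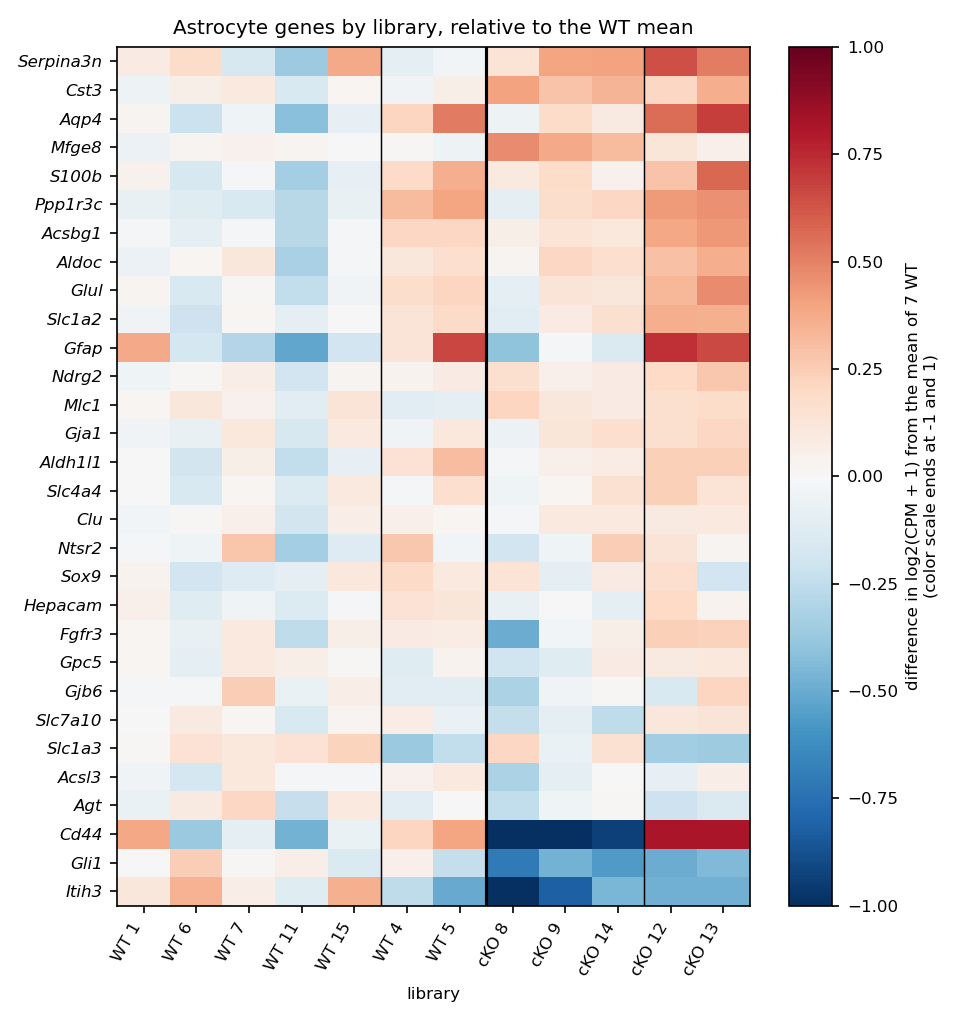
Difference in log2(CPM + 1) of 30 astrocyte genes (rows, ordered by fold change) in each library (columns) from the mean of the 7 libraries labelled WT, on a color scale that ends at -1 and 1. The 4 libraries that stood apart are drawn last within each label, and the upper rows are red there in both labels for Aqp4, S100b and Ppp1r3c, while Cd44 is blue in cKO 8, cKO 9 and cKO 14 and red in cKO 12 and cKO 13.

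Further genes of astrocyte function were read from 13 lists that hold 118 genes, 103 of them tested. Of these 9 passed, 6 higher and 3 lower, or 8.74% against the 14.1% of all tested genes, and their median log2 fold change was 0.022. None of 6 tested pan-reactive genes (Steap4, Timp1 and Cxcl10 were under the minimum) and none of 12 genes of the neurotoxic A1 type passed in limma, with 0 and 3 of them at an unadjusted p under 0.05 and 0 in edgeR and DESeq2. Of 5 tested genes of the A2 type only S100a10, a partner of annexin, did, at 12.4 ± 0.395 CPM (SD, n = 7) in WT and 15.9 ± 1.61 CPM (SD, n = 5) in cKO (0.32, adjusted p = 0.00683). Of 8 tested genes of the STAT3 and cytokine input to reactive astrocytes, the kinase Jak2 passed (0.12, adjusted p = 0.0296) and Stat3 did not (adjusted p = 0.0870).

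In the lists of resting functions single genes passed. Kcnj16, an inward rectifier potassium channel, was higher among 6 potassium and pump genes (0.27, limma adjusted p = 0.0473). Dbi, an acyl-CoA binding protein, was higher among 9 lipid genes (0.19, adjusted p = 0.0367). Hes5, a target of Notch, was higher among 12 transcription factors (0.30, adjusted p = 0.0244). Thbs1, a secreted factor that promotes synapse formation, was lower among 9 tested secreted factors, at 6.85 ± 1.81 CPM in WT (SD, n = 7) and 3.81 ± 1.45 CPM in cKO (SD, n = 5), a log2 fold change of -0.72 (limma adjusted p = 0.0233). None of 9 transmitter and amino acid transporters, of 4 phagocytic receptors or of 8 glycogen and lactate genes passed in limma, with 0, 0 and 1 of them at an unadjusted p under 0.05 and 0 in edgeR and DESeq2. The calls were kept in 23 of 25 alternatives for S100a10, 20 for Hes5 and for Thbs1, 16 for Jak2, 13 for Dbi and 9 for Kcnj16. With the neuron score as a covariate 0 of the 103 genes passed, where 3.17% of all tested genes did, and without WT 1 there were 3, where 7.55% of all did. Without the 4 libraries that stood apart 6 passed (5.83%, where 10.3% of all tested genes did), of the 9 only Shh and Thbs1, and the calls for S100a10, Hes5, Jak2, Kcnj16, Dbi and Cdon were lost. Over the 25 alternatives the log2 fold change was 0.28 to 0.38 for S100a10, 0.11 to 0.14 for Jak2 and 0.13 to 0.22 for Dbi. It was -0.36 to -0.20 for Cdon, 0.20 to 0.38 for Hes5 and 0.096 to 0.34 for Kcnj16. These ranges cover all 25 alternatives together, and the part of the 4 libraries in these differences was not tested.

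The authors' deposited table of their own test gave the same 5 of the 31 genes an FDR under 0.05, where 4.94% of the listed genes had one. The fold changes on the log2 scale in the authors' deposited table were -0.58 for Gli1, -0.66 for Itih3, 0.32 for Cst3, 0.28 for Mfge8 and 0.42 for Serpina3n. For Gfap the authors' deposited table gave 0.19 with an FDR of 0.862, and for Cd44 -0.05 with an FDR of 1.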

How the data were processed

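Per the labels' protocols, total RNA of the hypothalamus was purified on columns, and messenger RNA libraries were built with NEBNext Ultra II reagents. The submitters' processing notes name bcl2fastq, FastQC 0.11.9, STAR 2.7.9a, SAMtools, Subread and featureCounts, without roles. Genome build, annotation and strand setting are not given in the sources used here. The authors deposited normalized CPM for 32494 genes in 12 libraries, and the output of a test they ran, holding log2 fold changes, log2 mean CPM, p-values and FDR. Its fold changes had the sign of cKO minus WT for 99.6% of tested genes. Columns were matched by name and 0 value columns were left unused.

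The deposited CPM were whole multiples of the value of 1 read for 100% of values (tolerance 0.01), with implied scaling factors equal to edgeR's TMM factors (0.987 to 1.02). The 15359 genes averaging 1 CPM or more were fitted with limma 3.58.1 (R 4.3.3, lmFit, eBayes with trend) on log2(CPM + 1) over the 7 libraries labelled WT and 5 labelled cKO, with Benjamini-Hochberg adjustment over all of them and a threshold of 0.05. Fold changes on this scale understate changes of low genes. The labels give no batch. Single genes had a two-sided exact permutation test over 792 splits (smallest p 0.00126). On data simulated for this comparison, 186 of 186 tested genes changed by 1 log2 unit were recovered among 15355, with 8 false calls. The simulation gave all genes the same dispersion (0.0135) and held no libraries that stood apart. Its changes were larger than those of every called astrocyte gene. It therefore does not give the recovery or the error for differences of the size found here. Alternatives were a pseudocount of 0.1, all genes above 0, a minimum of 5 CPM, median centring, quantile normalization, arrayWeights, edgeR 4.0.16 quasi-likelihood (2097 genes called) and DESeq2 1.42.0 (2747 genes called) on the recovered reads, marker scores as covariates and leaving out each mouse. The oligodendrocyte and hypothalamic neuron scores and the fit without 4 libraries were chosen after seeing the data.

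Named genes were all 31, with full values for those past the threshold and for the 4 reactive genes, values for those past an unadjusted p of 0.05 only, and up to 4 of each other list by smallest p. Shh's pathway partners beyond those past the threshold, Stat3, and genes that mark other cells were named outside that rule. The 31 genes and all lists were chosen with earlier results of these data known. Some genes of the other lists enter the counts but are not reported here by name. Promoters came from RefSeq GRCm38.p6 and exon lengths from GENCODE M21.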

Additional observations from a re-analysis of the deposited data

Results flagged for a closer look

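Clusterin (Clu) had a low library in each group. In WT 11 it was at 726 CPM, where the next of the 7 libraries labelled WT was at 807 CPM, a gap of 0.595 of the group's range against a critical value of 0.568 for 7 samples. In cKO 8 it was at 812 CPM, where the next of the 5 libraries labelled cKO was at 876 CPM, a gap of 0.930 of the range against 0.710 for 5 samples. Over the 60 groups of values examined (30 genes in both groups), 2 such samples were found, where chance gives about 3. WT 11 and cKO 8 were also the libraries with the lowest value of their group for 20 and 21 of the 30 genes.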

How the results depend on the processing

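Gli1 kept its direction and its side of the threshold in all 25 alternatives, and Cst3, Mfge8 and Itih3 in all but the fit with the neuron score as a covariate. Serpina3n lost the threshold in 7 of 12 fits that left out 1 mouse, over all genes above 0, with the thalamic (0.295) or neuron score (0.0685) and without the 4 libraries (0.229). Its log2 fold change was 0.36 to 0.49 when leaving out each mouse and 0.16 to 0.60 over the 13 other alternatives. The lower end was not shared by all the lost calls, since it was 0.28 without the 4 libraries. Where the cause of a change was not given by the make-up of the fit, it was not tested. No scaling moved the median of all genes by more than 0.1. Over 775 comparisons of a value with its alternative, 686 kept direction and call, 14 lost the call, 29 gained it and 46 changed sign. No paired analysis was possible because the groups share no mouse numbers.

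Of all tested genes, 2172 passed, 5126 with arrayWeights (33.4%), 912 with the thalamic (5.94%) and 487 with the neuron score (3.17%), and between 1158 (without WT 1) and 2302 when leaving out each mouse. The share was 21.0% with the oligodendrocyte and 19.1% with the hypothalamic neuron score, and 4.86% over all genes above 0. Against these shares, of the 30 astrocyte genes, 12 passed with arrayWeights, 2 with the neuron, 13 with the oligodendrocyte and 12 with the hypothalamic neuron score. For the steady-state genes these counts were 10, 2, 12 and 11. The reactive count of 1 became 0 over all genes above 0 and with the thalamic or neuron score, 2 with arrayWeights (Cd44 added), and 0 to 1 when leaving out each mouse. Of the other lists, 4 of 118 genes passed over all genes above 0, and of 103 genes 25 passed with arrayWeights, 4 with the thalamic, 0 with the neuron and 14 with the oligodendrocyte score, and 3 to 10 when leaving out each mouse, with 3 without WT 1, 5 without WT 4, and 4 without WT 11, cKO 8, cKO 9 or cKO 14. The median of the steady-state genes, 0.10, was -0.044 with the neuron and 0.029 with the thalamic score.

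Signs changed only in genes that did not pass. With the neuron score the log2 fold change was -0.049 for Aqp4, -0.10 for Gfap, -0.11 for Aldh1l1, -0.037 for Slc1a2, 0.20 for Slc1a3, -0.044 for S100b, -0.053 for Glul, -0.17 for Fgfr3, -0.18 for Ntsr2, -0.075 for Hepacam and -0.021 for Ppp1r3c. With the thalamic score it was -0.16 for Gfap, 0.0043 for Slc1a3, -0.066 for Sox9, -0.099 for Fgfr3, -0.072 for Hepacam and 0.00075 for Gpc5. With arrayWeights it was -0.19 for Gfap, -0.017 for Sox9, -0.036 for Fgfr3 and -0.028 for Hepacam. Without the 4 libraries it was -0.025 for Gfap, -0.12 for Fgfr3 and -0.0021 for Hepacam. It was -0.011 for Fgfr3 under quantile normalization, -0.016 for Fgfr3 with the oligodendrocyte score and 0.0052 for Gpc5 under median centring. Leaving out each mouse gave -0.12 to 0.011 for Gjb6, -0.016 to 0.075 for Sox9, -0.058 to 0.12 for Fgfr3, -0.021 to 0.091 for Ntsr2, -0.033 to 0.040 for Hepacam and -0.037 to 0.038 for Gpc5. Depth limits Lcn2, which lay at or near the 3-read floor.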
